A study of Papaver somniferum with 12 samples.

Results

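The 200 leaf transcripts of opium poppy (Papaver somniferum) whose levels varied least from library to library are described here. They were chosen from a deposited table of 61856 unigenes, which are non-redundant transcripts assembled from long reads. A first condition was a mean between 15 and 200 RPKM (mapped reads scaled by transcript length and by library size) over all 12 libraries, which 6852 unigenes (11.08% of the table) met. From these, the 200 with the lowest standard deviation (SD) of log2(RPKM + 1) over the 12 libraries were taken, which is 2.919% of that window of levels. The rule also set aside the unigene of locus 225, whose mean of 92995 RPKM is above the window in any case, and the 20 other loci with most unigenes. Every locus number in the table has 1 unigene, so no locus was rich in unigenes and the last condition left nothing out. The choice was made on the measured values themselves, so the low spread of these unigenes is a description of how they were picked and carries no test.

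The libraries came from top leaves collected at the filling stage, after petal fall, from 4 cultivars of directed breeding, which are called B2, T, Z and G, with 3 independent samples each. B2 has white petals and a branching habit, T and Z have white flowers with purple spots, and G has pink flowers, and the study describes them as differing in benzylisoquinoline alkaloids, the group that includes morphine and noscapine. No treatment was applied. All reads were mapped to transcripts of a further cultivar, B1, so a sequence difference from B1 can lower a value without a lower RNA level.

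A reference transcript is one whose level is taken as constant, so that other transcripts can be expressed relative to it, as in quantitative PCR. In plants such transcripts are usually sought among genes that nearly every cell uses, for example those for actin, tubulin, ubiquitin, translation elongation factors and enzymes of basic metabolism. No transcript is constant everywhere, and a candidate holds only for the tissue, stage and genotypes in which it was measured. The identifiers of the table are not paired with gene names in the files used here, and 0 of them matched a RefSeq table of 91581 poppy genes. The unigenes are therefore named by identifier alone, their functions are not described, and the leaf origin of the libraries was not checked on marker genes. RPKM measures a share of the mapped reads, and in whole leaves fewer cells of a type and less RNA per cell cannot be told apart.

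Summed RPKM ran from 993016 to 1061092 per library, and no 2 libraries held identical values. The number of reads behind a value is unknown, so no counting interval is given. The 200 unigenes together held 0.882% to 0.958% of summed RPKM. B2 was the cultivar with the widest spread between its libraries, both in the whole window and, less so, among the 200.

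The SD of the 200 ran from 0.0441 to 0.0867 on the log2 scale, with a median of 0.0761. The median of the 6852 unigenes in the window was 0.219. In RPKM, the coefficient of variation of the 200 was 3.15% to 6.50%, with a median of 5.45%, against a median of 15.6% in the window. The ratio of the highest to the lowest library ran from 1.106 to 1.277, so that all 200 stayed within a factor of 1.3 over all 12 leaves. No unigene had all 12 values within 5% of its mean. All values lay within 10% of the mean in 86 of the 200 and within 15% in 193.

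The boundary of the list is not a break in the data. The last members inside it, PB.47176.2 and PB.60320.1, had SDs of 0.08671 and 0.08672 (19.1 to 23.3 RPKM and 51.2 to 63.1 RPKM). The first unigenes outside it, PB.31308.2 and PB.7549.16, had 0.08713 and 0.08717 (20.03 to 25.7 RPKM and 14.8 to 18.0 RPKM). The plot of spread against level shows a continuous cloud above the list.

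**Figure D1:**
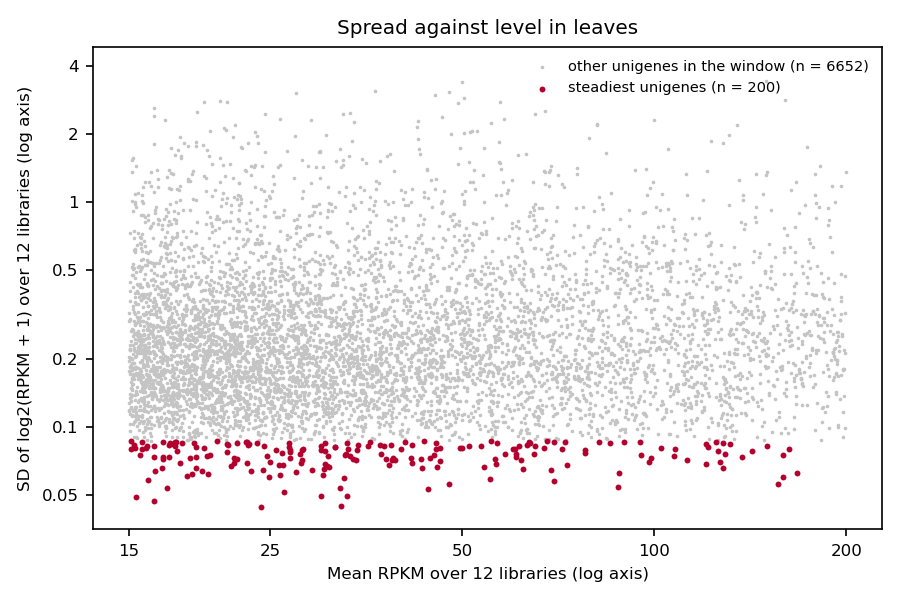
Each point is 1 unigene, with its mean RPKM over the 12 libraries on the x axis and its SD of log2(RPKM + 1) on the y axis (both log axes); red points are the 200 steadiest unigenes and grey points the other 6652 in the window. The red points fill the bottom of the cloud, below 0.0867, at every level from 15 to 167 RPKM.

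Steady unigenes were found at every level of the window. Of the 200, 64 had a mean of 15 to 25 RPKM, 74 of 25 to 50, 40 of 50 to 100 and 22 of 100 to 200. These are 2.57%, 3.36%, 2.99% and 2.68% of the unigenes in each band, so no band was over 1.5 times as rich in them as another. The highest means were 167.3 RPKM for PB.52801.5 and 162.7 RPKM for PB.60509.1. The lowest were 15.09 RPKM for PB.44164.1 and 15.12 RPKM for PB.25111.6, just above the lower limit.

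The lowest SD of all belonged to PB.33172.12. Its values in replicates 1, 2 and 3 were 23.31, 24.59 and 22.88 RPKM in B2, then 24.57, 25.25 and 22.80 in T, 24.17, 24.22 and 24.29 in Z, and 24.33, 24.81 and 24.53 in G. Its highest and lowest values were both in T, and the libraries of B2, Z and G lay between them. The mean of 24.1 RPKM had an SD of 0.760 RPKM over the 12 libraries.

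PB.49486.2 was next in order of SD. It had 32.64, 31.42 and 30.79 RPKM in B2, 31.62, 32.74 and 34.60 in T, 32.75, 31.94 and 33.35 in Z, and 31.43, 32.68 and 31.71 in G. Its lowest library was B2 replicate 3 and its highest T replicate 3. Its 3 libraries of G all lay between these extremes.

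PB.50846.1 and PB.57428.1 were the steadiest near the lower limit of the window. PB.50846.1 had 15.30, 15.63 and 16.72 RPKM in B2, 16.28, 16.88 and 16.74 in T, 16.86, 16.55 and 16.74 in Z, and 15.75, 16.76 and 16.94 in G. PB.57428.1 had 14.78, 14.87 and 16.19 RPKM in B2, 16.32, 15.71 and 15.34 in T, 15.63, 15.55 and 14.63 in Z, and 15.26, 15.57 and 14.70 in G. In both, 2 of the 3 libraries of B2 were among the low values and the third was not.

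For higher levels, the steadiest unigene at 50 to 100 RPKM was PB.54298.4, with an SD of 0.0540. It had 84.87, 90.99 and 91.33 RPKM in B2, 90.64, 90.12 and 84.49 in T, 90.43, 84.53 and 85.24 in Z, and 90.55, 82.60 and 85.25 in G. Its ratio of highest to lowest library, 1.106, was the smallest of the 200, and each cultivar had libraries near both ends of this narrow range.

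At 100 to 200 RPKM the steadiest was PB.7068.19, with an SD of 0.0560. It had 147.81, 164.01 and 146.48 RPKM in B2, 159.57, 159.94 and 156.00 in T, 150.69, 158.70 and 155.30 in Z, and 166.22, 151.75 and 155.95 in G. The libraries of B2 were spread over most of the range, with an SD of 9.76 RPKM around 152.8, whereas those of T had an SD of 2.18 RPKM around 158.5 (n = 3 each).

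The remaining members of the 10 with the lowest SD were PB.31229.9, PB.34860.2, PB.10309.10, PB.50105.3, PB.56547.3 and PB.4902.6. Their means were 32.98, 29.98, 26.22, 44.17, 32.13 and 17.21 RPKM and their SDs 0.0493 to 0.0535 on the log2 scale. PB.50105.3 had its highest values in T replicates 1 and 2 (47.57 and 46.28 RPKM), whereas T replicate 3, at 44.40 RPKM, lay below B2 replicate 2 and G replicate 3. In PB.56547.3 a single library, G replicate 3 at 34.94 RPKM, stood above the others, which ran from 30.06 to 33.40 RPKM.

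**Figure D2:**
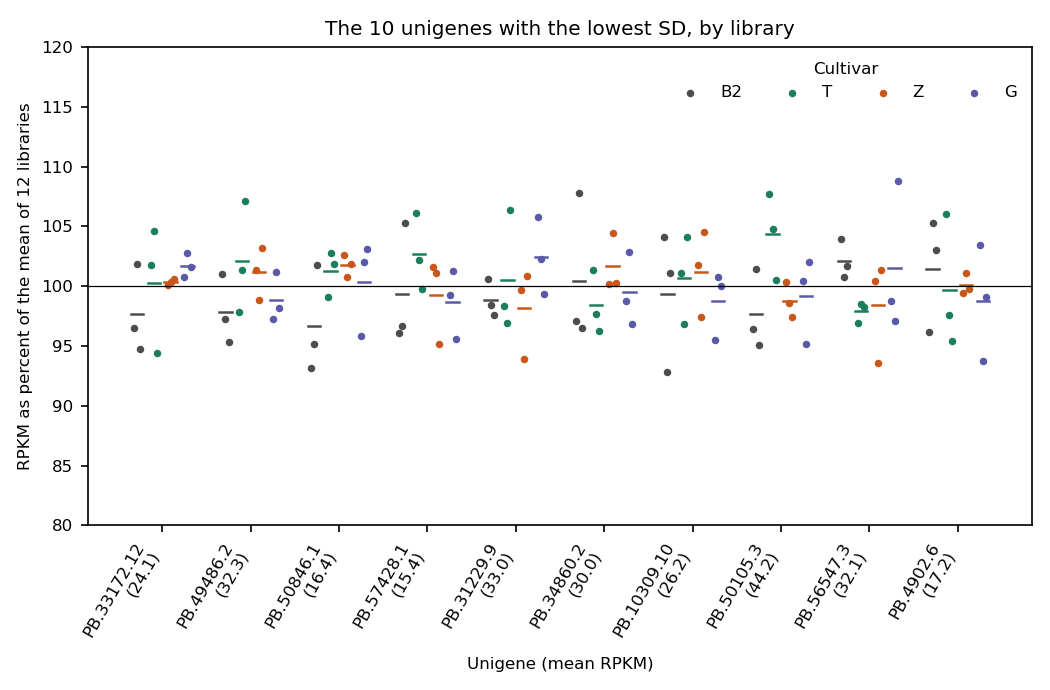
RPKM of each of the 12 libraries as a percent of the mean of the 12 libraries, for the 10 unigenes with the lowest SD (mean RPKM in brackets); points are libraries coloured by cultivar and short lines are the means of 3 libraries. All points lie between 92.8 and 108.8%, and in none of the 10 do the libraries of 1 cultivar lie apart from all 9 others.

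The members least steady by their extremes were PB.19420.5, PB.1809.61 and PB.24184.5, with ratios of highest to lowest library of 1.277, 1.274 and 1.271. In PB.19420.5 B2 replicate 3 had 73.97 RPKM, and the 11 others had 57.92 to 66.39 RPKM. PB.1809.61 had 143.08 RPKM in Z replicate 1 and 112.34 in G replicate 3, and 123.05 to 134.02 RPKM in the 10 others. PB.24184.5 had 19.68 RPKM in B2 replicate 2 and 15.48 to 17.97 RPKM elsewhere. In each of these, 1 or 2 libraries carried the extremes.

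The spread was then divided into its parts within and between cultivars. The pooled SD between replicates of a cultivar had a median of 0.0715 over the 200, and the SD of the 4 cultivar means had a median of 0.0451. In the window these medians were 0.170 and 0.162. The part of the sum of squares between cultivars, as a share of the total, had a median of 0.289 among the 200, with quartiles of 0.161 and 0.465. The median in the window was 0.5004. Means of 3 libraries also differ through replicate spread alone, so neither the share nor the SD of the means measures differences of cultivars by itself. Since the rule took low total spread, these shares describe the list and test nothing.

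Within cultivars, B2 replicates varied most. The lowest RNA integrity values that the study lists for these 12 libraries are those of B2 replicates 3 and 1. B2 replicate 2 has a higher value than T replicate 2 and Z replicates 2 and 3. It was nevertheless the library most often highest or lowest among the 200, in 56 positions. Whether RNA quality bears on the spread in B2 was not tested. The median SD between replicates of the 200 was 0.0780 in B2, with 0.236 in the window. In T it was 0.0565 and in the window 0.108, in Z 0.0524 and 0.114, and in G 0.0525 and 0.0994. B2 was the cultivar with the largest SD in 88 of the 200 (44.0%) and in 66.6% of the window. Over the 9 libraries of T, Z and G alone, the median SD was 0.0676 for the 200 and 0.156 for the window. The plot of replicate spread shows B2 above T, Z and G in both sets.

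**Figure D3:**
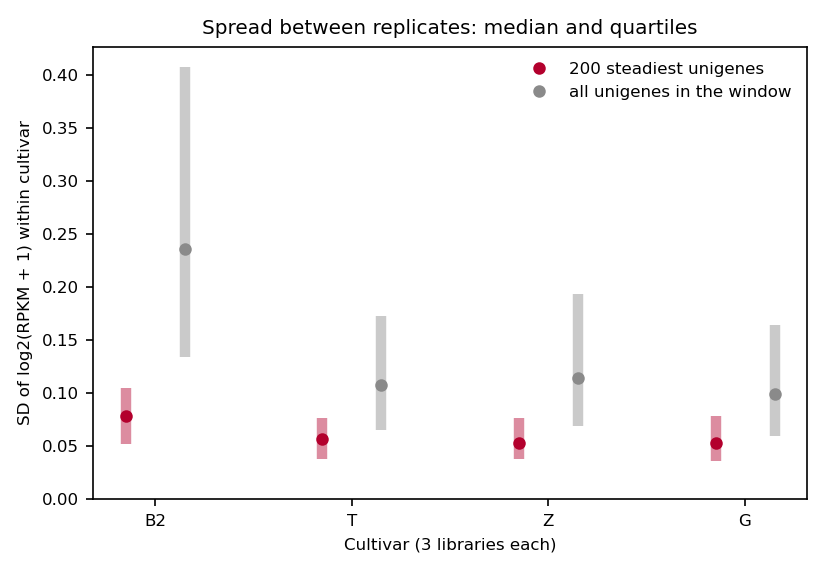
SD of log2(RPKM + 1) between the 3 libraries of each cultivar, for the 200 steadiest unigenes (red) and all 6852 unigenes in the window (grey); points are medians over unigenes and bars run between the quartiles. B2 has the highest median in both sets, 0.0780 and 0.236.

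Single libraries were counted as the highest or lowest of the 12 for each unigene. B2 replicate 2 was highest in 40 of the 200 and lowest in 16, and B2 replicate 1 was highest in 9 and lowest in 32. T replicate 1 was lowest in 31 and highest in 14. B2 replicate 3 was highest in 20 and lowest in 19. The 3 libraries of B2 held 34.0% of all highest and lowest positions among the 200, against 50% in the window, and those of G held 17.5%, against 11.04%. The median deviation of the 200 from their own means was between -0.0283 in B2 replicate 1 and 0.0267 in B2 replicate 2. The first principal component of the deviations held 17.0% of their variance, the second 14.2% and the third 12.2%. Shares without any common pattern were not computed for comparison.

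Between cultivars, the largest gap of cultivar means among the 200 was 0.195 on the log2 scale, and the median gap from the highest to the lowest cultivar was 0.0985. The unigenes were tested among all 33161 with at least 1 RPKM in at least 3 libraries, with limma's moderated F-test on log2(RPKM + 1) and Benjamini-Hochberg adjustment. At an adjusted p under 0.05, 0 of the 200 and 22.3% of all tested unigenes were called, and 0 of the 200 had an unadjusted p under 0.05. In the pairwise tests 0 of the 200 were called when T, Z or G was set against B2, where 20.7%, 24% and 17.4% of all tested unigenes were. In the comparisons without B2 the count was also 0, beside 1.46% of all tested for Z against T, 2.13% for G against T and 1.41% for G against Z. Unadjusted p-values under 0.05 were found for 3, 3, 0, 2, 0 and 1 of the 200 in the same order. In all 6 comparisons, 0 of the 200 also reached a fold of 2, the study's threshold, beside 7.05%, 8.17%, 5.96%, 0.754%, 1.03% and 0.663% of all tested. The counts at a fold of 2 were fixed by the way the list was made. Those at an adjusted p alone were kept low by it but were not fixed. Under other settings, given below, up to 4 of the 200 were called in the F-test. All of these counts are a description only. The counts do not show equal levels. The moderated standard error of a difference between cultivars was 0.0697 to 0.0932 on the log2 scale, about as large as the SDs themselves. It draws on the variances of all tested unigenes, so it is not the own precision of each unigene. The own pooled SD between replicates ran from 0.0361 to 0.0953 over the 200, with a median of 0.0715.

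Members differed in how much of their small spread lay between cultivars. With the own variance of each unigene in place of limma's moderated one, an alternative added after the values were seen, 4 of the 200 had an F-test adjusted p under 0.05, beside 18.3% of all tested unigenes. The test uses the values that chose the list, so the count is a description only. The 4 were PB.57891.2, PB.25111.6, PB.41065.1 and PB.57773.4. PB.57891.2 had the highest share between cultivars, 0.872, with 119.97, 114.89 and 119.51 RPKM in B2, 137.39, 132.90 and 133.11 in T, 121.97, 116.91 and 117.16 in Z, and 125.70, 132.35 and 124.67 in G. All 3 libraries of T lay above the 9 others. PB.25111.6, with a share of 0.841, had 14.23, 14.51 and 13.94 RPKM in B2 and 14.64, 14.61 and 13.69 in T, against 15.68, 16.21 and 16.06 in Z and 16.43, 16.15 and 15.28 in G. B2 and T did not overlap with Z and G.

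PB.41065.1, with a share of 0.834, had 68.69, 74.12 and 69.20 RPKM in B2 and 61.20 to 64.75 RPKM in the 9 libraries of T, Z and G. PB.57773.4 had 88.28, 91.63 and 82.79 RPKM in Z and 93.06 to 103.06 RPKM in the 9 other libraries. Among the 200, the 3 libraries of a cultivar lay above or below all 9 others in 3 unigenes when the cultivar was B2, in 6 when it was T, in 4 when it was Z and in 0 when it was G, which are 1.5%, 3%, 2% and 0% of the list. In the window the shares were 16.1%, 5.31%, 5.56% and 1.88%.

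At the other end, PB.50076.2, PB.58083.2 and PB.1916.26 had shares between cultivars of 0.0129, 0.0131 and 0.0183. PB.1916.26 had 44.32, 50.57 and 49.14 RPKM in B2, 46.27, 49.65 and 46.20 in T, 46.43, 49.49 and 46.70 in Z, and 46.73, 49.29 and 47.64 in G. Every cultivar had its highest value in replicate 2, and the 4 cultivar means spanned 0.0175 on the log2 scale. In PB.50076.2 both extremes were in B2, with 24.98 RPKM in replicate 2 and 20.29 in replicate 3, and the 10 others had 21.15 to 23.17 RPKM.

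Whether unigenes chosen in the same way keep their level in leaves that took no part in the choice was asked next. Each library was left out in turn, the 200 steadiest unigenes were chosen on the 11 others, and their values in the library left out were compared with their means in the 11. Every list was thus a new one, sharing 131 to 181 unigenes with the 200 described above. The shares below describe these new lists and not the 200 themselves. The other libraries of the same cultivar took part in each choice. Within a factor of 1.1 of that mean were 79.5% to 88.0% of the chosen unigenes when a library of T, Z or G was left out. In the window the shares were 43.4% to 60.2%. When a library of B2 was left out the share was 61.0%, 47.5% and 55.0% for replicates 1, 2 and 3, against 31.2%, 27.8% and 29.4% in the window. The chosen unigenes were thus closer to their earlier level than the window in 12 of 12 libraries. The 12 choices share most of their libraries, so these are not independent trials. The median size of the deviation was 0.0586 to 0.0741 for T, Z and G and 0.107 to 0.145 for B2.

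Whole cultivars were left out in the same way. With T, Z or G left out, the mean of its 3 libraries lay within a factor of 1.1 of the 9 others in 85.0%, 82.5% and 87.0% of the chosen unigenes, against 47.6%, 49.3% and 61.0% in the window. With B2 left out it was 61.0%, against 35.6%. The list chosen without B2 shared 69 unigenes with the 200, whereas those chosen without T, Z and G shared 139, 134 and 140.

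**Figure D4:**
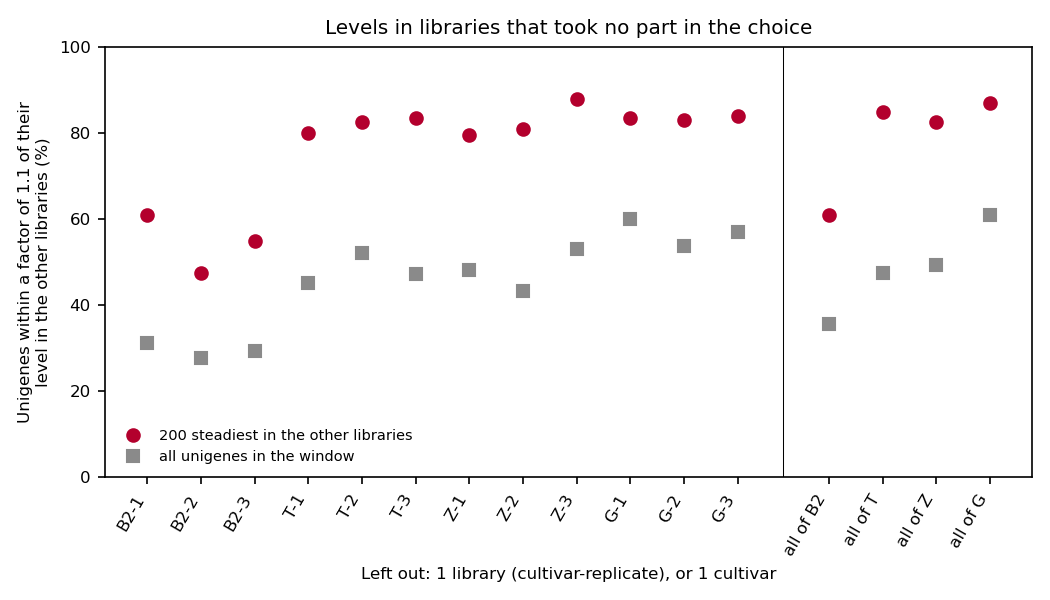
Percent of unigenes whose level in the library or cultivar left out lay within a factor of 1.1 of their mean in the other libraries, for the 200 chosen on those others (red circles) and for all unigenes in the window (grey squares). Red lies above grey at all 16 positions, and both are lowest where B2 is left out.

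Of the 2400 values in libraries left out, 1 differed by more than a factor of 2 from the level in the 11 others. This was PB.49812.1, singled out after its value was seen, with 8.47 RPKM in Z replicate 1 and 27.83 to 32.36 RPKM in the 11 other libraries. It was in rank 137 of the list chosen without Z replicate 1 and is no member of the 200. With 1 library of B2 left out, the farthest unigenes were PB.48230.13 (103.06 RPKM in B2 replicate 1 and 129.28 to 145.64 elsewhere), PB.8751.12 (38.73 RPKM in B2 replicate 2 and 24.57 to 28.52 elsewhere) and PB.3966.20 (11.77 RPKM in B2 replicate 3 and 16.53 to 19.87 elsewhere). With a whole cultivar left out, the largest deviation of a chosen unigene was 0.846 on the log2 scale without B2, and without T, Z and G it was 0.518, 0.357 and 0.262, so 0 of them reached a factor of 2.

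Reference transcripts are often averaged, so sets of the steadiest unigenes in the 11 other libraries were averaged on the log2 scale and read in the library left out. The root mean square deviation over the 12 libraries was 0.112 for 1 unigene, 0.10 for 2, 0.0758 for 3, 0.0453 for 5 and 0.0344 for 10. With 20, 50 and 200 unigenes it was 0.0406, 0.0406 and 0.0397. The largest deviation in size did not fall at every step. It was 0.168 (G replicate 2) for 1 unigene, 0.218 for 2 and 0.205 for 3 (both in B2 replicate 1, differences of 16.3% and 15.3%). For 5 unigenes it was -0.0963, also in B2 replicate 1, a difference of 6.90%. For 200 it was 0.109, in B2 replicate 2, where the median of all unigenes in the window was also raised, by 0.0658 against the mean of the 12 libraries. With a whole cultivar left out, the root mean square deviation over the 4 cultivars was 0.106 for 1 unigene, 0.0319 for 2 and 0.0227 for 3. It was 0.0268 for 5 unigenes, 0.0365 for 10, 0.0164 for 20, 0.0140 for 50 and 0.0130 for 200, so it did not fall at every step either. The mean of 5 unigenes then deviated by at most 0.0490 (T), that of 10 by at most 0.0672 (B2) and that of 200 by at most 0.0253 in size (Z).

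**Figure D5:**
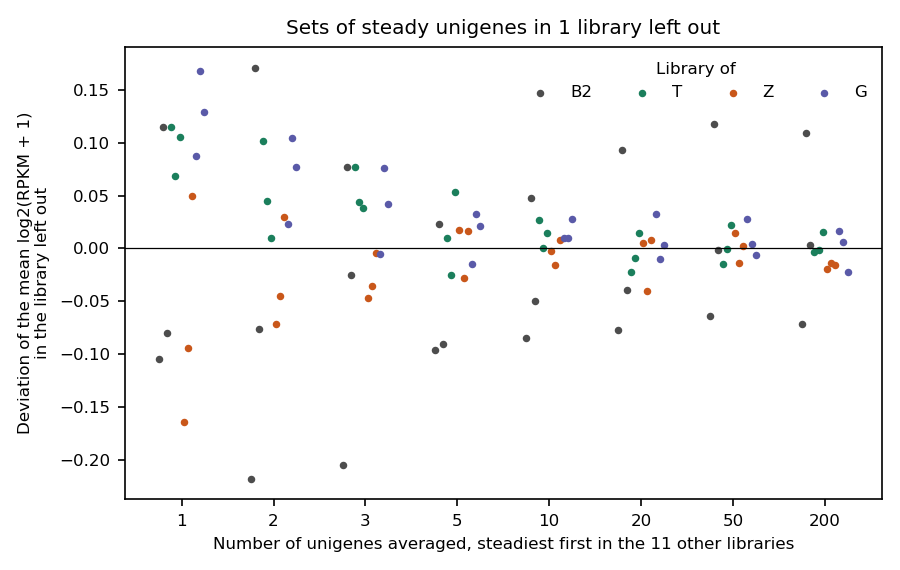
Deviation of the mean log2(RPKM + 1) in 1 library left out (y axis) for sets of 1 to 200 unigenes that were steadiest in the 11 others (x axis, categories); each point is a library, coloured by cultivar. The points of 2 unigenes, from -0.218 to 0.171, spread wider than those of 1, from -0.164 to 0.168, and for 200 unigenes the lowest and highest points, -0.0714 and 0.109, are libraries of B2.

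The ratio of 2 transcripts within a library does not depend on how libraries are scaled. For each of the 200, the SD of its log2 ratio to each other member was averaged. This mean SD ran from 0.0882 to 0.123 with a median of 0.107, and was lowest in PB.34860.2, PB.33172.12 and PB.7068.19 (0.0882, 0.0882 and 0.0900). Among all 19900 pairs, PB.3820.8 and PB.2818.25 had the lowest SD of the log2 ratio, 0.0369, against a median of 0.107 over pairs. PB.3820.8 was 5.39 to 5.81 times as high per length as PB.2818.25 in the 12 libraries. Both had their highest value in B2 replicate 2 (107.08 and 19.17 RPKM) and their lowest in Z replicate 1 (88.23 and 15.37 RPKM). They moved together and were not the steadiest singly, at ranks 57 and 180.

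The last part of an identifier, which in PacBio naming numbers the transcripts of a locus, took no part in the rule. It was 1 in 58 of the 200 (29.0%), in 35.9% of the window and in 70.6% of all unigenes. In each band of level the share was lower in the 200 than in the window, with 37.5% and 42.2% at 15 to 25 RPKM, 25.7% and 35.1% at 25 to 50, 25% and 31.5% at 50 to 100, and 22.7% and 26.2% at 100 to 200. Read the other way, the 200 held 2.36% of the window's unigenes numbered 1, 3.13% of those numbered 2 to 4, 3.26% of those numbered 5 to 9 and 3.58% of those numbered 10 or more. The median SD in these classes of the window was 0.234, 0.214, 0.212 and 0.207. The differences are small, were not tested, and the depth of the long reads behind the numbers is not known.

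Candidates for leaf reference transcripts were taken as the unigenes that stayed among the 200 steadiest under all 28 changes to the rule, which included other scalings of the libraries, other measures of spread, other windows and each library and cultivar left out. There were 12, and 134 of the 200 stayed in at least 20 of the 28. The changes to how loci were treated could not alter the list, because no locus number had several unigenes. Every other change ranked the unigenes on all or most of the same 12 libraries. The 12 candidates were therefore not read in any library that took no part in choosing them. One change raised the lower limit of the window to 20 RPKM, so no unigene with a mean from 15 to 20 RPKM could be among the 12, whatever its spread. PB.57428.1, PB.4902.6 and PB.57790.1, with means of 15.4, 17.2 and 18.5 RPKM, stayed in the other 27. In order of SD without scaling of the libraries the 12 were PB.33172.12, PB.49486.2, PB.31229.9, PB.34860.2, PB.10309.10, PB.56547.3, PB.54298.4, PB.1916.26, PB.7068.19, PB.55545.2, PB.49136.2 and PB.30058.10. Their means ran from 24.1 to 156.0 RPKM, with 8 of them between 24 and 33 RPKM. After median-ratio scaling of the libraries their SDs were 0.0507 to 0.0746. PB.54298.4, PB.55545.2 and PB.49136.2 had a lower SD after this scaling (0.0507, 0.0544 and 0.0535) than before (0.0540, 0.0577 and 0.0598), and the 9 others a higher one. PB.33172.12, first without scaling, rose from 0.0441 to 0.0717, and to 0.0792 after upper-quartile scaling. After upper-quartile scaling the SDs of the 12 ran from 0.0531 (PB.49136.2) to 0.0819 (PB.7068.19). The order within the 12 thus depends on the scaling.

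Of the 12, PB.55545.2 (65.10 to 75.45 RPKM) and PB.49136.2 (23.33 to 26.45 RPKM) give an intermediate and a low level. PB.30058.10, at 26.04 to 31.34 RPKM, was the least steady of the 12 without scaling, with an SD of 0.0646. The median-ratio factors of the 12 libraries ran from 0.957 to 1.067, and 121 of the 200 were chosen again after median-ratio scaling. The 3 highest factors were those of B2 replicates 1, 2 and 3 (1.040, 1.067 and 1.057), and those of T, Z and G ran from 0.957 to 1.025. This scaling thus lowers values of B2 relative to the other cultivars. Whether scaled or unscaled values are closer to RNA levels was not tested. The candidates rest on 3 leaves of each of 4 cultivars at 1 stage, and other tissues, stages and the cultivar B1 were not analysed here.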

How the data were processed

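RNA of 12 leaf samples was sequenced on an Illumina platform with paired ends. The authors filtered the reads by quality, aligned them with HISAT2 2.05 to a long-read transcript set of cultivar B1 (the unigenes), estimated expression with RSEM, and deposited RPKM values with 2 decimals. No genome build was used. RSEM divides reads among similar transcripts, so values of near-identical unigenes are uncertain. The table holds no read counts, and columns were matched to samples by the names in the labels.

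The members and lists were chosen with earlier results of these data known. SDs were taken on the log2(RPKM + 1) scale without further scaling of the libraries. Unigenes that reached 1 RPKM in 3 or more libraries were tested with limma 3.58.1 in R 4.3.3 (lmFit, eBayes with trend), with cultivar as the only factor and Benjamini-Hochberg adjustment. This test was used in place of the DESeq package of the study because RPKM values are not counts. The model was tested on simulated data. Python 3.11.15, numpy 2.4.6, pandas 2.3.3 and matplotlib 3.10.9 were used for the rest.

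Unigenes were named by a rule: the 10 lowest SDs, the lowest SD in each level band, the highest and lowest means, the members at the boundary, the extremes of the share between cultivars, of the ratio of highest to lowest library and of the SD of log2 ratios, and those chosen most often under 28 changes to the rule. As each locus number has 1 unigene, the parts of the rule on shared loci named nothing further. Same-numbered libraries of different cultivars were not paired by the labels.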

Additional observations from a re-analysis of the deposited data

How the results depend on the processing

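The number of the 200 unigenes chosen again depended on the scaling and on B2. It was 191 with a pseudocount of 0.1, 121 after median-ratio scaling and 103 after upper-quartile scaling of the libraries, and 69 without all 3 libraries of B2. By the SD of the 4 cultivar means it was 72, and by the pooled SD within cultivars 76, which each use a part of the spread by construction. With 1 library left out it was 131 to 181, with the lowest, 131, without B2 replicate 2 and without B2 replicate 3. Leaving no locus out, or keeping 1 unigene per locus, gave 200 because each locus number has 1 unigene. The median SD of the 200 stayed between 0.0676 and 0.0856 under 20 alternatives, and between 0.0729 and 0.0772 with 1 library left out.

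The count of 0 called unigenes was kept by all fits that left out 1 library and by those on only the cultivars compared. Without a filter on low values, 3 were called in the F-test, 3 for T and B2, 3 for Z and B2 and 2 for G and B2, beside 12.2%, 11.7%, 13.7% and 9.83% of all 61856 unigenes. After median-ratio scaling, 1 was called for T and B2 and 3 for Z and B2, beside 21% and 23.6% of 32943 tested. The own variance of each unigene gave 4 in the F-test. The cause was not tested. For the number chosen again, 21 of 28 alternatives kept to within 1.5 times of the count and 7 did not. In all, 160 of 174 alternative values kept to this limit or, for the median SD, within the spread between replicates. That total is no measure of robustness. Most of its values are counts of called unigenes, which the choice of low spread in the same values keeps low. The margin for the median SD, 0.0715, was nearly as large as the median of 0.0761 itself.

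A replicate block, with the number in the labels as a factor, called 0 of the 200 in every comparison, and 146 of the 200 were chosen again when replicate means were removed. Deviations of same-numbered libraries from their cultivar means had a correlation over unigenes of -0.0995 to 0.188, over 0.1 in 6 of 18 pairs, and 9 of 12 libraries correlated best with one of their own number. The labels do not say that a number marks a shared plot or day.

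Depth limits cannot be given, since RPKM values do not state read numbers. With the lower limit of the window at 10 or at 20 RPKM, 159 of the 200 were chosen again. Unigenes with means below 10 or above 200 RPKM were not searched.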
